A study of Mus musculus with 28 samples.

Results

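Sp7, Spp1, Ibsp, Bglap, Bglap2, Alpl, Phex, Mmp13, and Mepe are 9 genes that bone-forming osteoblasts, or the osteocytes that form from them, are known to express. They are 9 of the 52636 genes in the table of HTSeq read counts, from which they were taken by symbol. The set was chosen by its counts in these teeth in part, since Spp1 and Mmp13 change strongly between the stages. The values of Spp1 and Mmp13 are therefore given as a description without a test. Each library is a single wild type C57BL/6JOlaHsd mouse first molar germ, with 7 teeth of 7 embryos at E13 (bud stage), 7 teeth of 6 embryos at E14 (cap stage), and 7 teeth of 5 embryos at E16 (bell stage). The stages are E13.5, E14.5, and E16.5 in the sample labels, and 6 further teeth labelled E15 are in a second table of counts estimated by salmon. The germs were dissected with as little of the surrounding tissue as possible, and no animal carried a mutation or received a treatment.

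Osteoblasts arise from mesenchymal cells under the transcription factors Runx2 and Sp7. They then lay down a matrix of type I collagen with phosphate-rich acidic proteins, and they mineralize it with the help of alkaline phosphatase. In the jaw, the alveolar bone forms around the developing tooth germ, and osteoclasts remodel it to keep space for the growing tooth.

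Of the 9 genes, 6 passed the filter on low counts, and Bglap, Bglap2, and Mepe did not. Sp7, Alpl, and Ibsp had at least 429 normalised counts in each of the 21 teeth, including those of the bud stage. Bglap, Bglap2, and Mepe, which are known as genes of mature osteoblasts and osteocytes, had at most 31 counts in any tooth, so that the label of bone rests on the other genes. Whether the RNA of those other genes came from bone or from the germ itself was not tested. The 6 measured genes followed different courses: Spp1 was higher at E14 and E16 than at E13, Mmp13 was high at E16, Alpl rose at E16, Phex fell at E16, and no change of Sp7 or Ibsp passed the test from E13 to E14 or E16. RNA was taken from whole germs, so that fewer cells of a type and less RNA per cell cannot be told apart.

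The regions before the start sites of the genes are shown because the letters bound by Runx2, and those bound by the Fos and Jun proteins, are known from bone gene promoters. RefSeq promoter windows of GRCm38.p6 were found for 7 of the 9 genes, in 9 windows, and the 250 bases before the start site were searched on both strands for the RUNX letters ACCACA and for the AP-1 letters TGANTCA. The RUNX letters were in windows of 4 of the 7 genes, namely Spp1, Bglap, Mmp13, and Mepe, and they were in 4614 of all 32851 promoter windows of the same length (14%). The AP-1 letters were in the Mmp13 window, and in 6.75% of all windows, and these 2 motifs do not overlap each other there. Spp1 and Mmp13 are printed as the genes with the largest stage differences, Bglap as a gene with the RUNX letters and hardly any counts, and Alpl as a gene with neither motif. The capitals mark the motif matches, and the windows are Spp1 at chr5:104434861-104435110 on the plus strand, Mmp13 at chr9:7272264-7272513 on the plus strand, Bglap at chr3:88384467-88384716 on the minus strand, and Alpl (first of its windows) at chr4:137796385-137796634 on the minus strand.
Spp1: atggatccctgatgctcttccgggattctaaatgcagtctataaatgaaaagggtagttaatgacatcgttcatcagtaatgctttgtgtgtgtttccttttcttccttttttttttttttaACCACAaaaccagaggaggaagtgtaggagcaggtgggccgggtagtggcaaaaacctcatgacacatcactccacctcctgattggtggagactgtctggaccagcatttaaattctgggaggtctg
Mmp13: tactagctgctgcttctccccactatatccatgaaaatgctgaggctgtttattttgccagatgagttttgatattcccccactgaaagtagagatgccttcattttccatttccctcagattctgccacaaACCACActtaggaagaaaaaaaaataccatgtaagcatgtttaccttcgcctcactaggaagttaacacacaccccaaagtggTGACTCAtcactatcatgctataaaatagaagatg
Bglap: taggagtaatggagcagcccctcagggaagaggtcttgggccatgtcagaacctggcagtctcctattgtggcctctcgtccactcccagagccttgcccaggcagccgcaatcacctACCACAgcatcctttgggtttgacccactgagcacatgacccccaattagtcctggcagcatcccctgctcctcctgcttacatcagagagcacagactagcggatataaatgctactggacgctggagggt
Alpl: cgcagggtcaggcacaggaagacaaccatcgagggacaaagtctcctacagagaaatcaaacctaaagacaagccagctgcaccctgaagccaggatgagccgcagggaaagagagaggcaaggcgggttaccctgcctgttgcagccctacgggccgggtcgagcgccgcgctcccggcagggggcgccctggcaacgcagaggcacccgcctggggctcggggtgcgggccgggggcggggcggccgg
The RUNX letters begin 128 bases before the start site in Spp1, 118 bases before it in Mmp13, and 132 bases before it in Bglap, and the AP-1 letters begin 35 bases before it in Mmp13. These are matches of letters, and binding was not measured.

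The libraries held between 17814073 and 27115729 counted reads, with stage medians of 22833213 at E13, 24478310 at E14, and 25598732 at E16. Epithelial and mesenchymal tooth germ markers were present in every tooth, with at least 10 counts for all 4 epithelial (among them Krt14, Shh, and Epcam) and all 4 mesenchymal (Pax9, Msx1, Barx1, Lhx8) markers. From E13 to E16, 4 of 4 of the epithelial and 0 of 4 of the mesenchymal markers rose, and 3 of the 4 mesenchymal ones fell. In this comparison 41.3% of all genes passed in either direction. A pair of left teeth, from embryo 8 at E14 and from embryo 3 at E16, stood apart in several of the osteoblast genes. For the osteoblast genes, the main results that rest on them are given with and without them. The changes of the other gene lists, the tooth germ markers included, are given only with them. Muscle RNA was highest in the left tooth of embryo 7 at E13, with 4415 normalised counts summed over 6 muscle markers against 88.7 to 614 in the other E13 teeth. The levels below are counts divided by DESeq2 size factors (normalised counts), and the changes are log2 fold changes from edgeR.

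Sp7 (osterix, ENSMUSG00000060284, chromosome 15, 102356606 to 102367182 on GRCm38, minus strand) encodes a zinc finger transcription factor that osteoblasts require. Its normalised counts at E13 were 1584, 1329, 2326, 976, 1873, 1680, and 1446 in the teeth of replicates 1 to 7. At E14 they were 2013, 1292, 719, 1190, 1314, 1078, and 2606, and at E16 877, 1561, 1625, 1780, 1799, 1390, and 1736. The stages overlapped, and the highest value was in the left tooth of embryo 8 at E14. The stage means of E13, E14, and E16 were 1602 ± 427, 1459 ± 637, and 1538 ± 325 (SD, n = 7 each). The log2 fold change was -0.14 from E13 to E14, 0.07 from E14 to E16, and -0.07 from E13 to E16, each with a standard error of 0.22, and the adjusted p values of the edgeR quasi-likelihood test were 0.713, 0.84, and 0.838. Without the left tooth of embryo 3, the E16 mean was 1649 ± 157 (SD, n = 6) and the E13 to E16 change was 0.05, of the opposite sign.

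Alpl (ENSMUSG00000028766, chromosome 4, 137741733 to 137796384, minus strand) encodes tissue-nonspecific alkaline phosphatase, which breaks down pyrophosphate, an inhibitor of mineral. Its normalised counts were 2388, 2067, 3263, 1402, 2408, 2257, and 1682 in the E13 teeth and 3747, 2365, 2124, 2287, 2332, 3260, and 4995 in the E14 teeth. At E16 they were 1353, 5201, 4972, 6605, 6552, 5575, and 6261. At E16 the left tooth of embryo 3, with 1353, was below all teeth of the other stages, and the other 6 teeth were above all E13 teeth. The stage means were 2210 ± 597, 3016 ± 1059, and 5217 ± 1822 in the same order (SD, n = 7), and the E16 mean was 5861 ± 707 without the left tooth of embryo 3 (SD, n = 6). Alpl rose from E14 to E16 by 0.79 on the log2 scale (SE 0.25, edgeR, adjusted p = 0.0208), and from E13 to E16 by 1.23 (SE 0.25, adjusted p = 0.000359). The change of 0.45 from E13 to E14 did not pass the test (adjusted p = 0.226). When the counts of teeth of 1 embryo were summed, the E14 to E16 change was 0.71 and no longer passed the test (edgeR, adjusted p = 0.0876).

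Ibsp (bone sialoprotein, ENSMUSG00000029306, chromosome 5, 104299171 to 104311469, plus strand) encodes an acidic matrix protein that promotes mineral formation. The E13 teeth had 1124, 1014, 3346, 522, 3440, 1087, and 2363 normalised counts. The E14 teeth had 2663, 1198, 491, 520, 429, 2060, and 12400, and the E16 teeth 1684, 1930, 2331, 1872, 1965, 2894, and 1286. With 12400, the left tooth of embryo 8 at E14 was 14.4-fold above the median of the other 6 teeth of its stage, whereas the E16 teeth were within 2.25-fold of each other. The means of the 3 stages were 1842 ± 1197, 2822 ± 4308, and 1995 ± 507 (SD, n = 7), and the E14 mean without that tooth was 1227 ± 942 (SD, n = 6). None of the changes passed the test (edgeR, adjusted p of 0.493, 0.55, and 0.903). The sign of the E14 comparisons depended on this tooth, since the log2 fold change from E13 to E14 was 0.62 with it and -0.59 without it, and from E14 to E16 it was -0.51 with it and 0.71 without it.

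The same E14 tooth of embryo 8 was also the highest of its stage for Sp7, Alpl, and Phex, at 2.10, 2.13, and 1.33 times the median of the other 6 teeth. Its Spp1 was 1.06 times that median. The cartilage markers were summed over 8 genes, and this tooth had the highest sum of the E14 teeth, 3122 normalised counts, followed by the right tooth of embryo 1 with 2927 and the other 5 teeth with 1721 to 2026. The right tooth of embryo 1 was also second in Ibsp, with 2663. The sum over the 5 odontoblast and ameloblast genes was 486 in the tooth of embryo 8, or 2.67 times the median of the other 6, against 1.64 times for the cartilage sum. Col10a1, the collagen that marks hypertrophic cartilage, had 0 to 10 counts in the E14 teeth. The part of cartilage cells and of odontoblasts or ameloblasts in the Ibsp values was not tested.

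**Figure D1:**
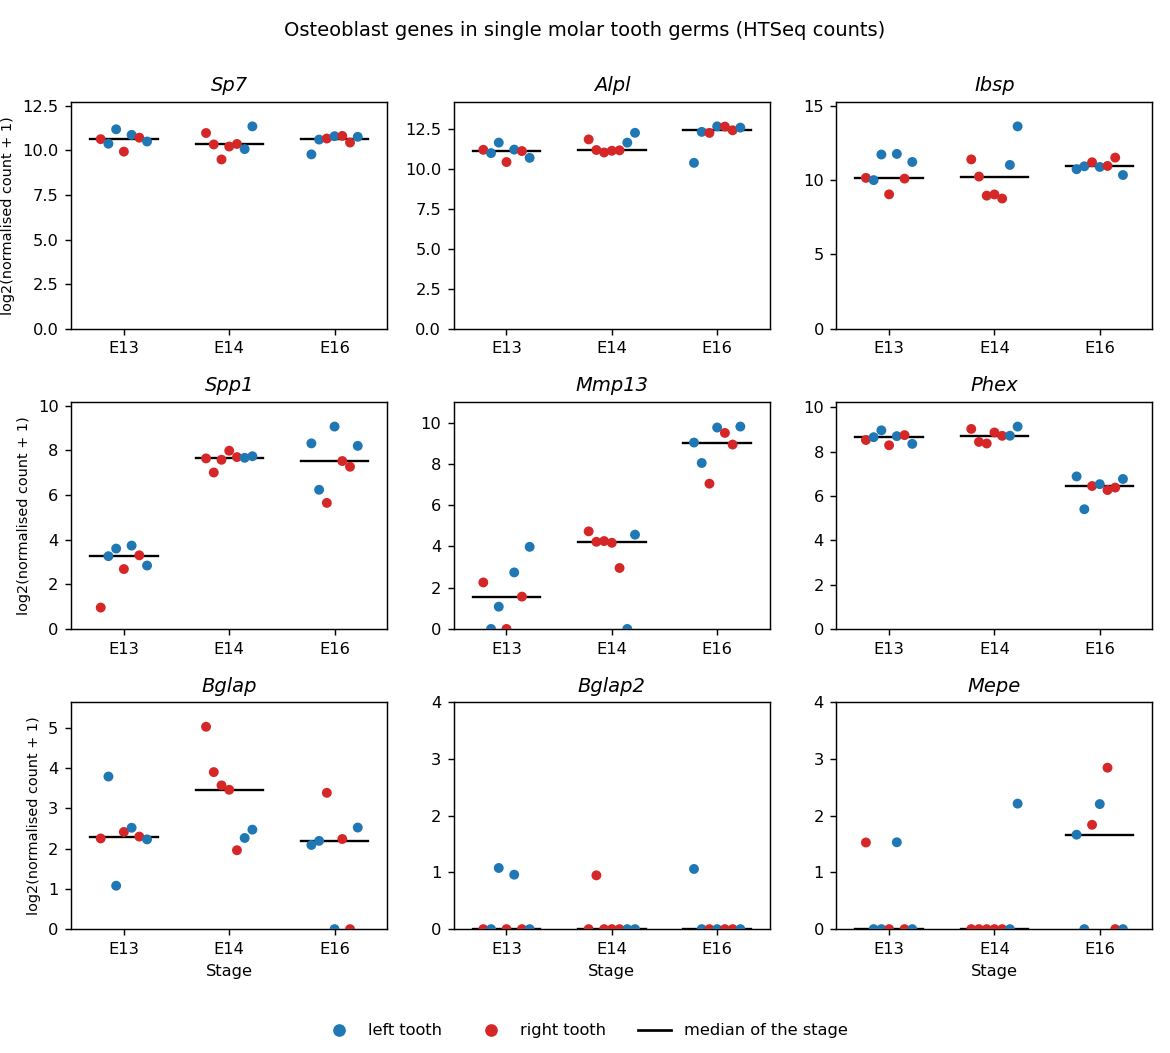
Normalised counts of the 9 osteoblast genes in the 21 teeth of E13, E14, and E16, as log2(normalised count + 1) on the vertical axes, which start at 0 and differ between panels. Points are single teeth in blue (left) or red (right), spread sideways in replicate order, and lines are stage medians. The Spp1 points are all below 13 normalised counts at E13 and all above 49 afterwards, the Mmp13 points are all above 130 at E16, and the Phex points at E16 are all below those of the earlier stages.

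Spp1 (osteopontin, ENSMUSG00000029304, chromosome 5, 104435118 to 104441050, plus strand) encodes a phosphorylated protein of bone matrix that osteoblasts, osteoclasts, and macrophages are all known to make. The E13 teeth had 1, 8, 10, 5, 13, 9, and 5 counts, or 0.943 to 12.3 normalised counts. The E14 teeth had 198, 128, 190, 252, 206, 202, and 212 normalised counts, and the E16 teeth 317, 74.2, 49.1, 534, 183, 153, and 293. No E13 tooth overlapped with a tooth of a later stage, and the E14 and E16 teeth overlapped. Of all 19101 genes tested, 9.92% had no overlap between E13 and E14, and 18.7% between E13 and E16. The means of the 3 stages were 7.62 ± 3.83, 198 ± 37.0, and 229 ± 168 (SD, n = 7), so that the E14 mean was 26.0 times and the E16 mean 30.0 times the E13 mean. The E14 teeth were within 1.98-fold of each other, and the E16 teeth spanned 10.9-fold. The ratio of the E16 to the E14 mean was 1.15, and that of the medians was 0.904. The annotation holds the provisional gene model Gm42793 on the same strand within the span of Spp1, and reads that overlap both may not have been counted.

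Mmp13 (collagenase 3, ENSMUSG00000050578, chromosome 9, 7272514 to 7283331, plus strand) encodes a protease of fibrillar collagen that osteoblasts and hypertrophic chondrocytes make. The E13 teeth had 4, 0, 1, 0, 6, 2, and 12 counts, and the E14 teeth 25, 19, 20, 17, 7, 0, and 25 counts. At E16 the normalised counts were 523, 263, 131, 867, 724, 490, and 896. All E16 teeth were thus above all teeth of E13 and E14, while E13 and E14 overlapped, with 5 of 7 E14 teeth above all E13 teeth. The means were 3.90 ± 5.22, 15.4 ± 8.99, and 556 ± 292 normalised counts at E13, E14, and E16 (SD, n = 7). The E16 mean was 36.1 times the E14 mean and 143 times the E13 mean, the latter resting on 25 counts in all 7 E13 teeth. Of these, 12 were in the left tooth of embryo 10, and without it the E16 mean was 266 times the E13 mean.

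Over E13, E14, and E16, Spp1 and Mmp13 differed in time, with the largest step of Spp1 between E13 and E14 and that of Mmp13 between E14 and E16. The salmon values with E15 did not show this order. There the Spp1 mean was 4.85-fold higher at E15 than at E13, and 6.76-fold higher at E16 than at E15. For Mmp13 these ratios were 27.5 and 5.32, so that its larger step came first. The limits of the E15 teeth are given below. At E16 the left tooth of embryo 6 had the highest Spp1 and the second highest Mmp13 of the 7 teeth, and the right tooth of the same embryo had the lowest of both. Osteoclasts, which make Spp1 as well, were followed by their markers. The sum over 11 osteoclast markers was 16300 normalised counts in the left and 5805 in the right tooth of embryo 6, the highest and the lowest of the E16 teeth. The 3 teeth with the highest osteoclast sums, between 11770 and 16300, had Mmp13 at 724 to 896, and the other 4, with 5805 to 8426, had Mmp13 at 131 to 523. Spp1 overlapped between these teeth, with 183 to 534 in the first and 49.1 to 317 in the others. The osteoclast markers were also higher at E14 (3916 to 4876) than at E13 (1754 to 3042), without an overlap of the teeth. Over 6 macrophage markers the sums were 915 to 1388 at E13, 1501 to 2062 at E14, and 1687 to 3388 at E16. The part of osteoclasts and macrophages in the Spp1 and Mmp13 values was not tested.

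Phex (ENSMUSG00000057457, chromosome X, 157162075 to 157415312, minus strand) encodes an endopeptidase on the surface of osteoblasts, osteocytes, and odontoblasts that is needed for normal phosphate balance. Its normalised counts were 366, 400, 495, 310, 413, 426, and 324 at E13 and 517, 344, 328, 463, 417, 418, and 557 at E14. At E16 they were 116, 41.1, 86.1, 91.3, 75.7, 81.9, and 108. All E16 teeth were below all teeth of E13 and E14, and the E13 and E14 teeth overlapped. The means were 390 ± 63.6, 435 ± 84.4, and 85.7 ± 24.3 (SD, n = 7), so that the E14 mean was 5.07 times the E16 mean. Phex fell from E14 to E16 by 2.35 on the log2 scale (SE 0.17, edgeR, adjusted p = 1.74e-10) and fell by 2.195 from E13 to E16 (SE 0.17, adjusted p = 1.75e-10). The change of 0.15 from E13 to E14 did not pass the test (adjusted p = 0.544). The E16 tooth lowest in Alpl, of embryo 3, was the highest in Phex at that stage. A processed pseudogene (Gm15172) and a pair of small RNA genes (Gm23798, Gm25795) lie within the span of Phex.

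Bglap and Bglap2 (ENSMUSG00000074483, chromosome 3, 88383501 to 88384464, and ENSMUSG00000074486, chromosome 3, 88377736 to 88378699, both on the minus strand) encode osteocalcin, the vitamin K-dependent protein that osteoblasts secrete late. They are neighbouring copies, and their first 150 coding bases are printed to show how little separates them, with the capitals at the 3 bases that differ in this stretch.
Bglap: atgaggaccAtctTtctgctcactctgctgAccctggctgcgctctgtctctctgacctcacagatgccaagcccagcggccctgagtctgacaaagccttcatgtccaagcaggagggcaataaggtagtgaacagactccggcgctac
Bglap2: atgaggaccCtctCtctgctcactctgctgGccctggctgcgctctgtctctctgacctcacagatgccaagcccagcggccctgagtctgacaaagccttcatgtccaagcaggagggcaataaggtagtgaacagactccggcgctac
Over the whole coding sequence of 285 bases, 281 bases are the same and 4 differ (98.6% identity), and the third copy, Bglap3, is 95.4% identical to Bglap. Of all windows of 84 bases, the read length stated for these libraries, 224 of 357 (62.7%) of the Bglap transcript also occur in a transcript of another copy, and for Bglap2 260 of 388 (67.0%) do. Reads from such windows cannot be placed on 1 gene, and the counts of both genes are therefore uncertain. In the 7 teeth of a stage together, Bglap had 33 counts at E13, 80 at E14, and 26 at E16, of which 31 of the E14 counts were in the right tooth of embryo 1. The means of Bglap were 4.92 ± 3.69, 11.1 ± 9.97, and 3.54 ± 3.21 normalised counts (SD, n = 7), with overlap of all stages. With the teeth of an embryo summed, Bglap was kept by the filter and fell by 1.74 on the log2 scale from E14 to E16 (edgeR, adjusted p = 0.0324), and with every gene kept the change was -1.61 and did not pass the test (adjusted p = 0.116). Bglap2 had 2, 1, and 1 counts in all teeth of E13, E14, and E16.

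Mepe (ENSMUSG00000053863, chromosome 5, 104325329 to 104338611, plus strand) encodes a matrix phosphoglycoprotein of osteocytes. It lies between Ibsp and Spp1 on chromosome 5, in the cluster of genes for acidic mineral-binding proteins. Its counts over the 7 teeth were 4 at E13, 4 at E14, and 14 at E16. At E16, 3 of 7 teeth had no count and the highest had 5 counts, and no fold change is given at this depth. The 3 neighbours in this cluster thus differed in level at E16, with 965 normalised counts per kilobase of exon for Ibsp, 139 for Spp1, and 1.24 for Mepe.

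Per kilobase of exon, the order of the mean levels at E13 was Ibsp (891 normalised counts per kilobase), Alpl (548), and Sp7 (471), followed by Phex (62.1) and then by Bglap (7.96), Spp1 (4.63), and Mmp13 (1.46). Ibsp, Alpl, and Sp7 did not differ beyond the spread between teeth in this order. At E14, Ibsp (1365, resting on the left tooth of embryo 8), Alpl (748), and Sp7 (429) again led, and Spp1 (120) came before Phex (69.1). At E16 the order was Alpl (1294), Ibsp (965), Sp7 (453), Mmp13 (208), Spp1 (139), and Phex (13.6). Mmp13 and Spp1 differed by less than their spread between the E16 teeth. Bglap2 and Mepe were at most at 1.24 normalised counts per kilobase at each stage.

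Counting the 4 genes with a test, 0 of 4 passed between E13 and E14 (edgeR), where 19.7% of all 19101 genes tested passed, and 0 of 4 had an unadjusted p below the threshold of 0.05 or passed with DESeq2. Between E14 and E16, 2 of 4 passed, Alpl upward and Phex downward, against 28.1% of all genes. The same genes passed between E13 and E16, where 41.3% of all genes passed. Of the 6 genes kept by the filter, Mmp13 and Phex had no overlap between the E14 and E16 teeth, as did 10.8% of all genes. Mmp13 was among the genes picked for their change, so that this count is a description.

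Teeth of 1 embryo could be compared in 3 embryos, 1 at E14 and 2 at E16. In embryo 6 at E16, Spp1 was 534 normalised counts in the left and 49.1 in the right tooth (10.9-fold), and Mmp13 was 867 and 131 (6.63-fold). The other genes of this pair were closer, with Sp7 at 1780 and 1625, Alpl at 6605 and 4972, and Phex at 91.3 and 86.1. In this embryo, 1.22% of 14791 genes with at least 100 counts differed 2-fold or more between the teeth, and the median gene differed 1.10-fold. The right tooth of embryo 6 also had the highest sum of the 6 muscle markers at E16, 965 normalised counts against 88.6 in the left tooth. In embryo 8 at E16 the right tooth had more Ibsp (2894 against 1286) and the left tooth more Spp1 (293 against 153) and Mmp13 (896 against 490). In embryo 6 at E14, Ibsp was 2060 in the left and 429 in the right tooth (4.80-fold), whereas Spp1 (202 and 206) and Phex (418 and 417) were nearly equal. In this pair 1.81% of genes differed 2-fold or more. Teeth of an embryo share their age and genotype, and the share of the dissected surroundings was not measured.

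**Figure D2:**
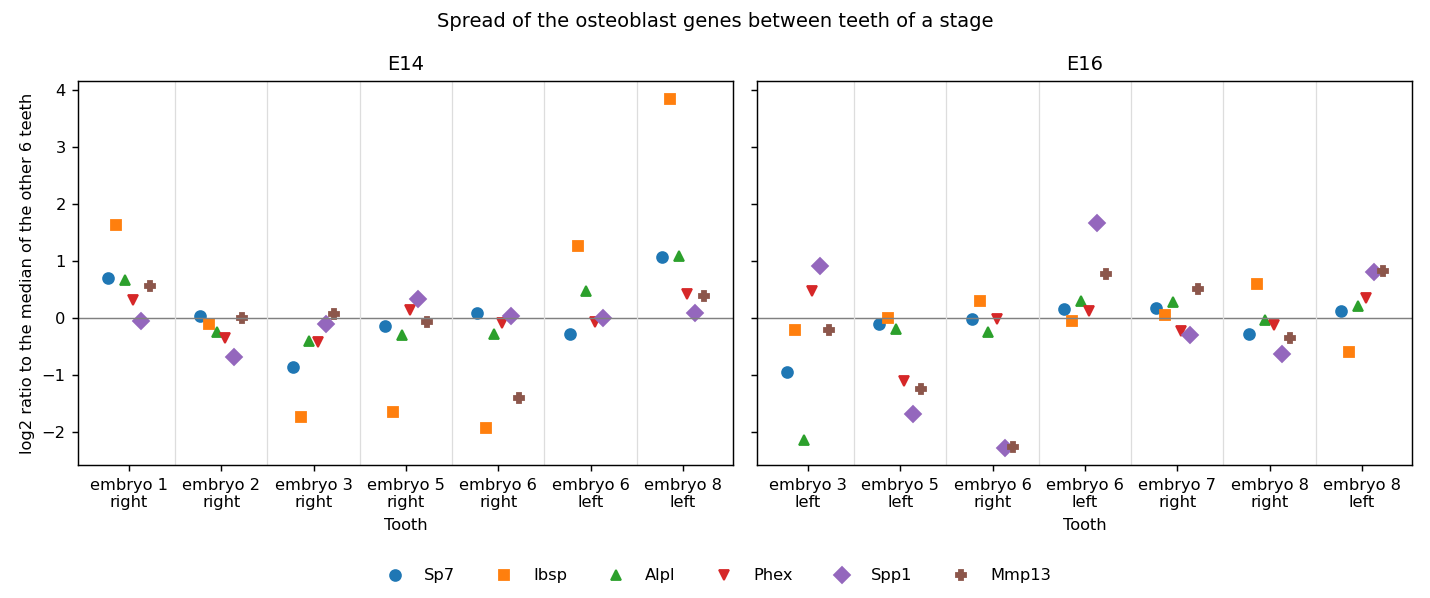
Each osteoblast gene in each tooth of E14 (left panel) and E16 (right panel) as the log2 ratio to the median of the other 6 teeth of that stage, where 0 means equal to it. Ibsp spans the widest range at E14 and is highest in the left tooth of embryo 8, and at E16 Spp1 and Mmp13 are low in the right tooth of embryo 6 while Alpl is low in the left tooth of embryo 3. The Mmp13 value of the left tooth of embryo 6 at E14 is a count of 0 and is not drawn.

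At E16, the left tooth of embryo 3 was low in Alpl (0.228 times the median of the other 6 teeth) and Sp7 (0.522 times), and not in Spp1 (1.89 times), Phex (1.39 times), Ibsp (0.865 times), or Mmp13 (0.863 times). Bone matrix genes other than the 9 were also low in it, with a sum over 9 genes of 62890 normalised counts against 202800 to 265500 in the other E16 teeth. Dlx3, a homeobox regulator of bone and tooth cells, was 531 normalised counts in it, the lowest E16 value, against a stage median of 4029. The tooth germ markers were lowest in this tooth as well, with a mesenchyme sum of 8566 against 14000 to 18600 and an epithelium sum of 14800 against 20790 to 24050 in the others. It also had the smallest osteocyte sum (437), odontoblast and ameloblast sum (215), cartilage sum (1039), and macrophage sum (1687) of its stage. Its osteoclast sum (7283) and muscle sum (142.5) were not the lowest. Its library had the fewest counted reads of the 21, 17814073. The cause was not tested.

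To see which of the genes vary together between teeth of a stage, the stage mean was subtracted from the log2 CPM values and the deviations were compared over the 21 teeth. Pearson's r was 0.81 for Sp7 and Alpl, 0.71 for Sp7 and Ibsp, 0.54 for Spp1 and Phex, and 0.52 for Ibsp and Alpl, and it was between -0.02 and 0.35 for the other pairs of the 6 genes. For Sp7 and Ibsp it was 0.57 without the left tooth of embryo 8 at E14, and without the left tooth of embryo 3 at E16 it was 0.78 for Ibsp and Alpl, 0.63 in place of 0.08 for Alpl and Phex, and 0.59 in place of 0.35 for Sp7 and Phex. These values describe 21 teeth of which 3 pairs share an embryo, and the genes of a tooth share its library. The 10 genes closest to the mean deviation of the 6 osteoblast genes, among 19095 others, were Fat3 (r = 0.89), Cd200 (0.88), Tmem132d (0.85), Entpd3 (0.82), Ppm1e (0.82), Car3 (0.81), Panx3 (0.80), Zswim6 (0.79), Col11a2 (0.79), and Syt6 (0.79). That mean was taken without scaling and includes Spp1 and Mmp13, which had at most 13 and 12 counts in an E13 tooth. The part of counting noise in it was not tested. Panx3 encodes a channel protein of osteoblasts and chondrocytes, and Col11a2 a fibrillar collagen chain of cartilage. Without the left tooth of embryo 8 at E14, Panx3 was at rank 22 and Col11a2 at rank 32. With both teeth that stood apart left out, they were at ranks 39 and 37. Without the left tooth of embryo 8 at E14, 5 of these 10 genes were among the 10 closest, and with both teeth that stood apart left out 4 were, of which Fat3, Cd200, and Tmem132d stayed in the first 3 places.

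The E15 teeth, which were not used when the genes were picked, are in the salmon table with the same E13 and E16 teeth. This table lists 7 of the 9 genes, without Bglap and Bglap2, and the values in this paragraph and the next are normalised estimated counts. The E15 teeth came with their own processing notes, so that differences of E15 from the other stages and differences between the submissions cannot be told apart. Sp7 was 866, 1230, 950, 627, 988, and 1045 in the 6 E15 teeth, with a mean of 951 ± 200 (SD, n = 6), against 1591 ± 440 at E13 and 1528 ± 270 at E16 (SD, n = 7). It fell by 0.70 on the log2 scale from E13 to E15 (SE 0.17, edgeR, adjusted p = 0.00398) and rose by 0.66 to E16 (SE 0.17, adjusted p = 0.0204). Ibsp was 228, 888, 263, 555, 982, and 847 at E15, below all 7 E16 teeth (1232 to 2776), and 3.07% of 13447 genes had no overlap between these stages. It fell by 1.47 from E13 to E15 (SE 0.39, edgeR, adjusted p = 0.00714) and rose by 1.61 from E15 to E16 (SE 0.40, adjusted p = 0.0125). The means of Sp7 and Ibsp were thus lower at E15 than at E13 or E16. The E15 and E13 teeth overlapped in both genes, with 2 E15 teeth below all E13 teeth in each. Sp7 also overlapped between E15 and E16. Ibsp was 501 to 3342 at E13, with a median of 1086 against 701 at E15.

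Alpl was 2664 ± 780 at E15 (SD, n = 6), between 2110 ± 580 at E13 and 4939 ± 1694 at E16 (SD, n = 7). It rose by 0.87 from E15 to E16 (SE 0.26, edgeR, adjusted p = 0.0454), a call that held in 9 of 23 alternatives, with adjusted p up to 0.105. Phex was 352, 324, 182, 343, 327, and 309 at E15, above all E16 teeth (47.2 to 153), and it fell by 1.73 from E15 to E16 (SE 0.20, edgeR, adjusted p = 4.83e-06). Its change of -0.28 from E13 to E15 did not pass the test (adjusted p = 0.282). Spp1 was 13.7, 87.8, 11.9, 14.2, 39.0, and 73.4 at E15, with 3 of 6 teeth above all E13 teeth (0.933 to 16.9) and all but 1 E15 tooth below all E16 teeth (77.4 to 664). Mmp13 was 86.1, 227, 38.5, 63.5, 87.8, and 86.0 at E15, above all E13 teeth (0 to 14.6), where 13.2% of all genes had no overlap, and 6 of the 7 E16 teeth (123 to 807) were above all E15 teeth. The left tooth of embryo 3 had the highest Sp7, Alpl, Spp1, and Mmp13 of the E15 teeth. Of the 4 genes with a test, 2 of 4 passed between E13 and E15, where 26.8% of 13447 genes passed, and 4 of 4 passed between E15 and E16, where 6.33% passed. Without the left tooth of embryo 5 at E15, 2 of 4 passed between E15 and E16, since Sp7 (adjusted p = 0.052) and Alpl (adjusted p = 0.105) did not. The E14 teeth are not in this table, and E15 was not set against E14.

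**Figure D3:**
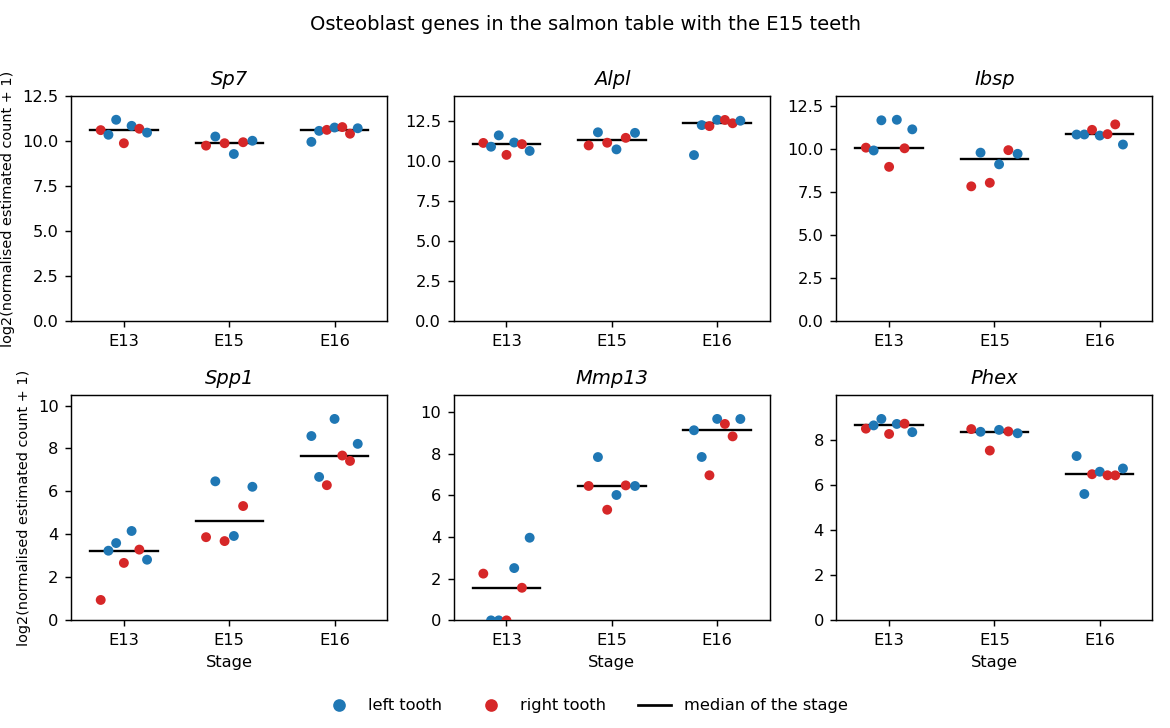
The 6 osteoblast genes kept by the filter in the salmon table, as log2(normalised estimated count + 1) in the 7 E13, 6 E15, and 7 E16 teeth, with blue points for left and red points for right teeth and lines for stage medians. Mmp13 stands between its E13 and E16 values at E15, and the Ibsp points of E15 are all below those of E16.

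The genes that regulate and surround the osteoblast program were read from the same fits. Their RNA was measured in whole germs, and the part of bone cells and of tooth cells in their values was not tested. Of 8 regulators of the osteoblast lineage, 2 rose and 1 fell from E13 to E14, and 4 rose and 1 fell from E14 to E16, where 19.7% and 28.1% of all genes passed, with a median log2 fold change of 0.40 in the latter step against 0.00 over all genes. Runx2, the factor upstream of Sp7, had 8594 ± 1158, 9495 ± 1269, and 11250 ± 1686 normalised counts at E13, E14, and E16 (SD, n = 7) and rose by 0.38 from E13 to E16 (SE 0.11, edgeR, adjusted p = 0.00549). Dlx3 rose by 1.54 from E13 to E14 (edgeR, adjusted p = 9.05e-05) and by 0.94 from E14 to E16 (adjusted p = 0.00538). Its relative Dlx5 rose by 0.68 from E14 to E16 (adjusted p = 0.0212). From E13 to E16, 4 of the 8 regulators rose and 2 fell, where 41.3% of all genes passed. Twist1 and Cbfb had lower means at E16 than at E13. Those of Twist1 were 2818 ± 222, 1996 ± 165, and 1761 ± 536 normalised counts at E13, E14, and E16 (SD, n = 7). Those of Cbfb were 4785 ± 301, 4859 ± 582, and 3368 ± 430.5.

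Of 9 genes for bone matrix and its processing, 4 rose and 0 fell from E13 to E14, 1 rose and 0 fell from E14 to E16, and 6 rose and 0 fell from E13 to E16, where 19.7%, 28.1%, and 41.3% of all genes passed, with a median log2 fold change of 0.88 from E13 to E16 against -0.01 over all genes. Omd, the small proteoglycan osteomodulin, was 162 ± 54.2, 356 ± 66.8, and 1372 ± 376 normalised counts at E13, E14, and E16 (SD, n = 7), and rose in both steps, by 1.14 (SE 0.18, edgeR, adjusted p = 7.56e-05) and 1.94 (SE 0.18, adjusted p = 9.19e-09). Col1a1, the alpha 1 chain of type I collagen, rose by 1.15 from E13 to E16 (adjusted p = 0.000249), whereas its partner Col1a2 had a change of 0.23 (adjusted p = 0.264). Bgn, the proteoglycan biglycan, rose by 1.22 from E13 to E14 (adjusted p = 0.00105) and had a change of -0.05 from E14 to E16 (adjusted p = 0.905). These changes include the left tooth of embryo 3 at E16. The lowest E16 values were 2171 normalised counts for Bgn, 24590 for Col1a1, and 20580 for Col1a2. The E16 medians of these genes were 13160, 136100, and 53050. The matrix genes are also known from fibroblasts and tooth mesenchyme.

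Of 7 genes for phosphate and mineralization, 6 were tested, of which 3 rose and 0 fell from E13 to E14, and 1 rose and 2 fell from E14 to E16, against 19.7% and 28.1% of all genes that passed. Enpp1, the enzyme that makes pyrophosphate and so opposes Alpl, had 503 ± 306, 3082 ± 701, and 1348 ± 186 normalised counts at the 3 stages (SD, n = 7). It rose by 2.61 to E14 (SE 0.28, edgeR, adjusted p = 2.52e-07) and then fell by 1.20 to E16 (SE 0.27, adjusted p = 0.00128). Phospho1, a phosphatase of matrix vesicles, was 45.8 ± 22.4, 42.8 ± 44.9, and 17.4 ± 10.1 (SD, n = 7) and fell by 1.38 from E13 to E16 (SE 0.54, edgeR, adjusted p = 0.0444). The phosphate transporter gene Slc20a2 had a log2 fold change of 0.21 from E14 to E16 (adjusted p = 0.0481).

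Of 4 osteocyte genes, Dmp1 and Pdpn were tested. Dmp1, an acidic matrix protein of osteocytes and odontoblasts from the same chromosome 5 cluster as Ibsp and Spp1, had 10.7 ± 6.36, 74.1 ± 30.3, and 43.4 ± 16.1 normalised counts at E13, E14, and E16 (SD, n = 7). It rose by 2.78 from E13 to E14 (SE 0.38, edgeR, adjusted p = 8.95e-06), the step at which Spp1 was also higher. Sost, the Wnt inhibitor of osteocytes, had 9, 152, and 17 counts in all 7 teeth of E13, E14, and E16, and Fgf23, the phosphate hormone, had 21, 21, and 22. Among 5 genes for hormone and growth factor input, 2 rose and 2 fell from E14 to E16, where 28.1% of all genes passed. Vdr, the vitamin D receptor, rose by 1.74 and 1.22 in the E13 to E14 and E14 to E16 steps (edgeR, adjusted p = 3.31e-06 and 5.13e-05), and Pth1r, the parathyroid hormone receptor, fell by 0.58 from E14 to E16 (adjusted p = 0.012).

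The markers of other cells in or near the germ were read in the same way. All 11 osteoclast genes rose from E14 to E16, where 28.1% of all genes passed in either direction, with a median log2 fold change of 1.56 against 0.00 over all genes, and 6 of 11 rose from E13 to E14, where 19.7% passed. Acp5, the tartrate-resistant acid phosphatase, was 93.0 ± 44.6, 311 ± 47.2, and 1314 ± 633 normalised counts (SD, n = 7), and rose by 2.07 from E14 to E16 (SE 0.26, edgeR, adjusted p = 1.08e-06). Of the 6 macrophage markers, 4 rose from E13 to E14 and 3 from E14 to E16, with medians of 0.73 and 0.53, against the same shares of all genes. Of the 8 cartilage markers 5 were tested, of which 0 rose and 3 fell from E13 to E14, and 2 rose and 1 fell from E14 to E16, with medians of -1.005 and 0.40. Col2a1, the main collagen of cartilage, was 3550 ± 216, 1771 ± 596, and 414 ± 127 at E13, E14, and E16 (SD, n = 7). Of the 6 muscle markers 5 were tested, and 0 rose and 1 fell in each step, with medians of -1.74 and 0.34. For the cartilage and muscle counts as well, 19.7% and 28.1% of all genes passed in these steps. Of the 5 odontoblast and ameloblast genes, Dspp, Amelx, and Enam did not pass the filter, with at most 46 counts in a tooth, and Ambn rose by 1.17 from E14 to E16 (SE 0.27, edgeR, adjusted p = 0.00155). The part of these cell types in the values of the osteoblast genes was not tested.

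**Figure D4:**
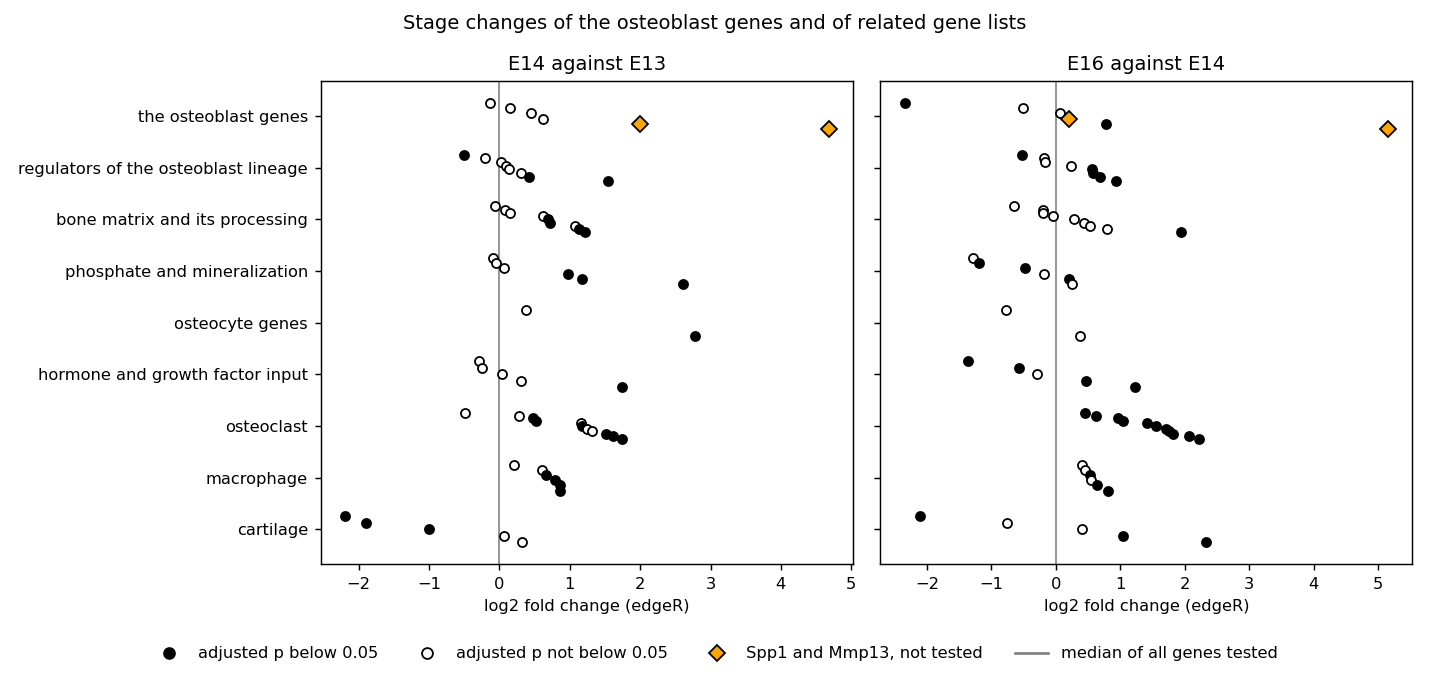
Log2 fold changes from edgeR (horizontal axes) of the osteoblast genes and of related gene lists (rows) from E13 to E14 (left panel) and from E14 to E16 (right panel). Filled circles passed an adjusted p of 0.05, open circles did not, orange diamonds are Spp1 and Mmp13 without a test, and the grey line is the median of all genes. All 11 osteoclast genes are filled and to the right in the step from E14 to E16, whereas the osteoblast genes of that step lie on both sides of the line.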

How the data were processed

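RNAseq libraries of 21 single molar germs of E13, E14, and E16 were analyzed, together with 6 of 7 labelled E15 teeth for which a column was present. Groups, embryos, and sides were taken from the sample labels. The authors filtered the reads (FastQC, AfterQC, Trimmomatic), aligned them with STAR to GRCm38 with Ensembl release 90, and deposited whole-number counts per gene made with HTSeq, whose strand setting is not stated. Estimated counts of 14185 genes, given as whole numbers, were also deposited, and the processing notes of the E15 teeth name Salmon 0.99.0, Trimmomatic 0.39, and FastQC 0.11.8. Which genes that table keeps is not stated, and the tables were fitted separately.

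Levels are counts divided by DESeq2 (1.42.0) size factors, which were 0.805 to 1.18. Stages were compared with the quasi-likelihood test of edgeR (4.0.16, R 4.3.3), TMM normalization, and filterByExpr, which kept 19101 and 13447 genes, with Benjamini-Hochberg adjustment over all genes and a threshold of 0.05, and the fit was tested on simulated data. Standard errors are the log2 fold change over the root of F. Beyond counting error, the coefficient of variation between teeth was 21.2% and 22.7% in these fits. Replicates differed by more than sampling noise (lowest chi-square per degree of freedom 7.21 over 63 pairs, and 6.59 in the salmon table). Nothing in the labels gives a sequencing batch. Teeth of 1 embryo were counted as separate samples, so p values measure the spread between teeth. Coordinates and exon lengths are from the GENCODE annotation of GRCm38, and promoters from RefSeq.

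The genes and lists were chosen with earlier results of these data known. Named genes are the 9 genes and, from each list, every gene of lists of up to 4, otherwise the 2 with the highest mean count and the 2 with the largest change from E13 to E16 among those that passed, and the 10 closest in deviation within stages. Some genes that this rule names are not reported here. Col10a1, Dspp, Amelx, Enam, Twist1, and Cbfb were added by name after their values were seen. The alternatives were DESeq2 size factors or the DESeq2 Wald test, every gene with any count, the stages fitted in pairs, the side as a factor, the counts of an embryo summed, the salmon table, and each tooth left out.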

Additional observations from a re-analysis of the deposited data

Results flagged for a closer look

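Of 34 groups of teeth tested for a single value far from the others of its stage (Dixon's test), 10 were marked. Chance marks about 1 in 20 only where values are normally distributed. The test was run on normalised counts without a log, for which this was not shown, so the number marked cannot be set against that rate. It does not apply at all to 3 of the marked groups (Bglap2 at E14 and E16, Mepe at E14), in which a single tooth had any count. At E14 the highest Ibsp, 12400 normalised counts, and the highest Mepe, 3.64 (4 counts), were in the left tooth of embryo 8. At E16 the lowest Alpl, 1353 normalised counts, and the highest Bglap2, 1.09 (1 count), were in the left tooth of embryo 3. Bglap was highest in the left tooth of embryo 2 at E13, 12.9 normalised counts (12 counts), and in the right tooth of embryo 1 at E14, 31.7 (31 counts). Bglap2 was highest at E14 in the right tooth of embryo 2, 0.931 normalised counts (1 count). Mmp13 was highest at E13 in the left tooth of embryo 10, 14.8 normalised counts (12 counts). In the salmon table at E15, the right tooth of embryo 4 had the lowest Phex, 182 normalised estimated counts, and the left tooth of embryo 3 the highest Mmp13, 227.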

How the results depend on the processing

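Under all alternatives run, Phex and Alpl kept their direction from E13 to E16 and from E14 to E16, and 2 of the 4 tested genes passed in both comparisons, except that 1 passed from E14 to E16 with the teeth of an embryo summed, where Alpl had an adjusted p of 0.0876. The adjusted p of Alpl between E15 and E16 went up to 0.105. Between E15 and E16 the number of tested genes that passed was 2 to 4 with each tooth left out, and 2 without the left tooth of embryo 5 at E15. Genes called between E13 and E14 numbered 3767, and 3077 to 5855 with each tooth left out, the highest without the left tooth of embryo 3 at E16, 5641 with these stages fitted alone, and 5084 with both teeth that stood apart left out. Between E15 and E16 they numbered 851, and 671 to 1382, the highest again without that E16 tooth. Between E13 and E16 they numbered 7887, and 4889 in the salmon table, which lists fewer genes. Changes that turned in sign had not passed the test, or were not tested. With each tooth left out, the log2 fold change of Ibsp was -0.593 to 0.84 from E13 to E14 and -0.684 to 0.714 from E14 to E16, both turned by the left tooth of embryo 8 at E14, and -0.056 to 0.349 from E13 to E16, turned by the right tooth of embryo 5 at E13. That of Sp7 was -0.158 to 0.061 from E13 to E16, turned by the left teeth of embryo 3 at E13 and E16, and -0.032 to 0.292 from E14 to E16, turned by the right tooth of embryo 3 at E14. That of Spp1 from E14 to E16 was -0.143 to 0.398, turned by the left tooth of embryo 6 at E16, and -0.143 with the side as a factor. With both teeth that stood apart left out, Ibsp was -0.59 from E13 to E14 and 0.751 from E14 to E16, and Sp7 was 0.047 from E13 to E16, a setting chosen after seeing the data, like the likeness without the E14 tooth. The cause was not tested. No paired analysis was possible because the embryos of the stages are different animals. Depth limits Bglap, Bglap2, and Mepe, whose stage totals were at most 80 counts.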
